A study of Rattus norvegicus with 12 samples.

Results

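Transporters and channels are the proteins that let nutrients, ions, drugs and signalling molecules cross a membrane. The genes described here were 54 of the 1099 genes with a named probe, and 72 of the 1279 named probes. They were chosen by symbol from the study's own list of changed genes, as far as that list could be read: each symbol starts with Slc, Abc, Kcn, Scn, Cacn, Clcn, Clic, Aqp, Trpc, Trpm, Trpv, Atp1, Atp2 or Atp8. Slc7a11 and Kcna5 were left out. That list had been selected on the difference between silica and saline rats at day 28, at a fold of at least 2 and a p of at most 0.05, so the values of day 28 are given as a description with no test. The arrays of day 14 took no part in that list, and tests were made on those alone. Slc7a11 and Kcna5 were left out with earlier results of these data known. Signs differed between the days for Kcna5, so the counts of agreement between days below do not include that gene.

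Whole lungs of male Wistar rats, whose age is not given in the sources used here, were measured on single-colour Agilent arrays, with 1 array for each sample. The 12 samples formed 4 groups of 3: silica and saline at day 28, which are the study's model and control groups, and silica and saline at day 14. Silica rats had received 1 mL of silicon dioxide at 50 mg/mL through the trachea and saline rats 1 mL of saline. The titles also give the dose as 50 mg/kg and mark 6 arrays as day 14, whereas the protocol text of all arrays and the study's methods name day 28 only. The study's methods name the rat as the unit at day 28. At day 14 the labels give only replicate numbers, so the samples are called rats here without a statement that they were separate animals, and p-values measure the spread between these samples. The lungs of day 28 had been picked on histology, so these rats may not stand for their whole groups. Signals are given as log2 of the spot intensity after quantile normalization over the 12 arrays, and a difference of 1 on that scale is a fold of 2. On each array 60.5% to 69.5% of the 51255 probes were well above background, and no probe was saturated. All arrays of day 14 lay on 1 slide. At day 28 the first slide held the silica rats and saline rat 1 alone, so slide and treatment can be told apart there only through that saline rat. Such arrays cannot tell fewer cells of a type from less RNA in each cell.

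Solute carriers move small molecules by coupling them to ion gradients or to an exchanged solute. ABC transporters and ion pumps spend ATP, and channels open a pore for ions or water. In the lung, the flat alveolar type 1 cells carry water and ion channels, the endothelium takes up serotonin and prostaglandins from the blood, and macrophages that have ingested particles depend on carriers of the lysosome. Potassium channels set the membrane potential of smooth muscle and of immune cells.

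Each value rests on a probe of 60 bases. The probes below belong to 3 of the genes with the largest rises at day 14, to the Slc6a12 probe that was called where its gene's brighter probe was not, to Slc6a4 as the gene that fell most among those called, and to a pair of Clic paralogs that moved in opposite directions. They are written 5′ to 3′ as deposited, in lower case because no part of them is singled out.
Slc26a4: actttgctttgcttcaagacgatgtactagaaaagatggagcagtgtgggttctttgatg
Slc37a2: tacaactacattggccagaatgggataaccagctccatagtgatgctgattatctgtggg
Kcnn4: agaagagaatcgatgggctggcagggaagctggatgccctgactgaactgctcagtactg
Slc6a12, dimmer probe: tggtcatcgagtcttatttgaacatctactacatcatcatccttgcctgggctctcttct
Slc6a4: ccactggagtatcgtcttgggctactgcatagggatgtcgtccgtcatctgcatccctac
Clic1: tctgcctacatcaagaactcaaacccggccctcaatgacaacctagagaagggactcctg
Clic3: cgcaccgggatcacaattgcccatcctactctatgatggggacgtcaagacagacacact

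At day 14, 5 of 7 carriers of sugars, monocarboxylates and mitochondrial substrates and 3 of 7 amino acid carriers rose, as did the pendrin gene Slc26a4 and the channel gene Kcnn4. Of these, Slc26a4 and the amino acid carrier gene Slc36a3 were well above background on every array in the silica group alone. Slc6a4 and Slco2a1, the transporter genes of serotonin and prostaglandins, fell. Of the 54 genes, 52 were measured well enough to be tested (on all 3 arrays of one group or the other the spot stood well above background). With limma on the 6 arrays of the day, adjusted over all 33615 probes tested, 20 were called (adjusted p no higher than 0.05, with a fold of 2 or more), against 4.99% of all probes. Higher in silica lungs were 16, against 2.65% of all probes, and lower were 4, against 2.34%. At the adjusted p alone there were 29, of which 20 were higher and 9 lower, against 9.45%, 4.64% and 4.8% of all probes. Of the 33 genes that were higher at day 28, all had a mean difference above 0 at day 14, and in 28 every silica rat lay above every saline rat, which 15.5% of all probes did. Of the 21 lower genes, 20 had a mean difference below 0 and in 15 the silica rats lay wholly below, which 18.9% of all probes did. The median difference at day 14 was 1.05 over the 33 genes and -0.88 over the 21, against -0.01 over all probes tested.

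Some of those tests were tied to the filter. Of the 52 genes tested, 41 were well above background on all 6 arrays, 7 passed through the silica rats alone and 4 through the saline rats alone. Genes that enter through the group in which they are high had little room to come out equal. Among the 41, 11 of 26 were called higher and 4 of 15 were called lower. At the adjusted p alone, 15 of the 26 were higher and 8 of the 15 lower. The 5 called genes that entered through the silica rats were Slc26a4, Abcb4, Slc36a3, Kcnip4 and Kcnk13. The 4 that entered through the saline rats were Slco1a1, Slco1a5, Kcnd3 and Kcnj4, and none was called. Kcne5 and Kcnma1 were tested in neither direction.

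At day 28, by the choice of the genes, all 33 higher genes lay above saline and all 21 lower genes below it without overlap, which 23.6% and 24.2% of the 32097 probes measured that day did, and a fold of at least 2 was seen in 5.16% (higher) and 5.65% (lower) of all probes. In 9 of the 54 no array of the lower group was well above background, so their fold is only bounded. Differences of the other 45 ran from -2.32 for Abcb1b to 4.72 for Slc26a4. As measured, the bounded genes included, 50 of the 54 were larger in size than at day 14. The other 4 were Slc16a6, Slc25a10, Slc26a4 and Kcnj4. The choice at day 28 favoured large differences on that day, so these counts do not show growth between the days, which was not tested. Within the first slide, with saline rat 1 as the only control, all 54 kept their sign, which the lack of overlap had fixed in advance. A fold of 2 was missed there by Abca5, Kcnk2, Kcnq5, Trpm5 and Clic1. Closest to the limit over all arrays were Abca5 at -1.01 and Trpm5 at -1.01. Genes just outside it were not named in the list and were not analysed here.

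**Figure D1:**
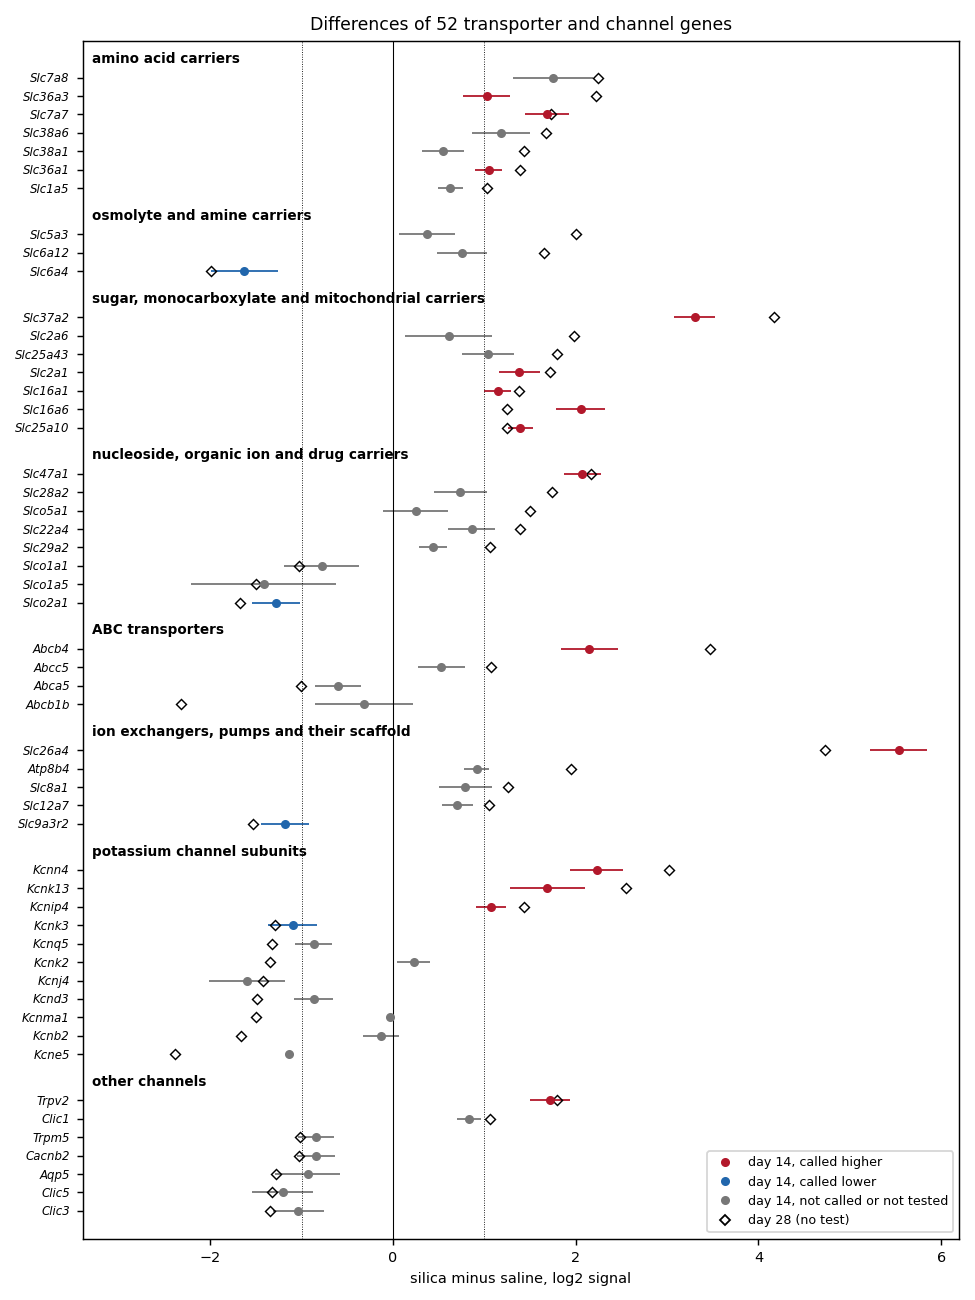
Silica minus saline difference in log2 signal (horizontal axis) of 52 of the transporter and channel genes, grouped by role, with filled circles for day 14 (mean difference of 3 against 3 rats, bars 1 SE from limma) and open diamonds for day 28 (no test). Genes not well above background in one group are drawn at their measured difference. Red and blue circles are the 15 genes drawn that were called higher and the 4 called lower at day 14, dotted lines mark a fold of 2, and Slc26a4 lies farthest to the right on both days.

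Markers of cell types moved along with these genes. Of 8 macrophage markers, 7 were called higher at day 14, against 2.65% of all probes. All 8 were free of overlap, silica above saline, which 15.5% of all probes were. Their summed signal was 2849 to 4545 in saline and 24074 to 35974 in silica lungs. At day 28 it was 3426 to 3968 and 35019 to 43321. Vsig4 was not well above background in any saline rat of day 14 and had passed the filter through the silica rats alone. Of 8 endothelial markers 5 were called lower at day 14, with sums of 26520 to 32360 in saline and 9291 to 17403 in silica lungs. Of 4 alveolar type 1 markers 1 was called lower, with sums of 9914 to 11188 and 2310 to 5675. The share called lower over all probes was 2.34%. The 3 smooth muscle and pericyte markers differed by -0.65 to -0.90 and none was called, the 2 red cell genes Hbb-b1 and Hbe2 were called lower at -1.52 and -1.5, and the neutrophil gene Il1r2 differed by 2.2 (adjusted p = 0.064). When each rat of day 14 was left out in turn, no lower call among these markers held in every refit. Of the macrophage calls, those of Itgam and C1qa were lost in some refits. These marker genes are themselves on the study's list of genes changed at day 28. Their part in the differences of the transporters and channels was not tested.

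Silica rat 1 of day 14 stood apart. It was the highest silica rat for 26 of the 33 higher genes and the lowest for 18 of the 21 lower genes. Its median difference from the saline mean was 1.42 and -1.33 over these lists, against 0.83 and -0.71 in rat 2 and 0.98 and -0.68 in rat 3. The same rat was lowest for all 8 endothelial and all 4 alveolar type 1 markers and highest for 7 of 8 macrophage markers. Without it 13 genes were called higher and 1 lower, the latter being Slc6a4. At day 28 a rat also numbered 1 was farthest for 25 of 33 higher and 14 of 21 lower genes. Leaving out saline rats of day 14 cost more calls: 11 higher and 0 lower genes were called without saline rat 1, 6 and 1 without rat 2, and 6 and 0 without rat 3. Only Slc26a4, Slc37a2, Slc25a10 and Slc47a1 of the 20 called genes kept their call whichever rat was left out, and the last 2 of these fell just short of a fold of 2 with another background correction, normexp on the scanned signals (0.96 and 0.95).

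**Figure D2:**
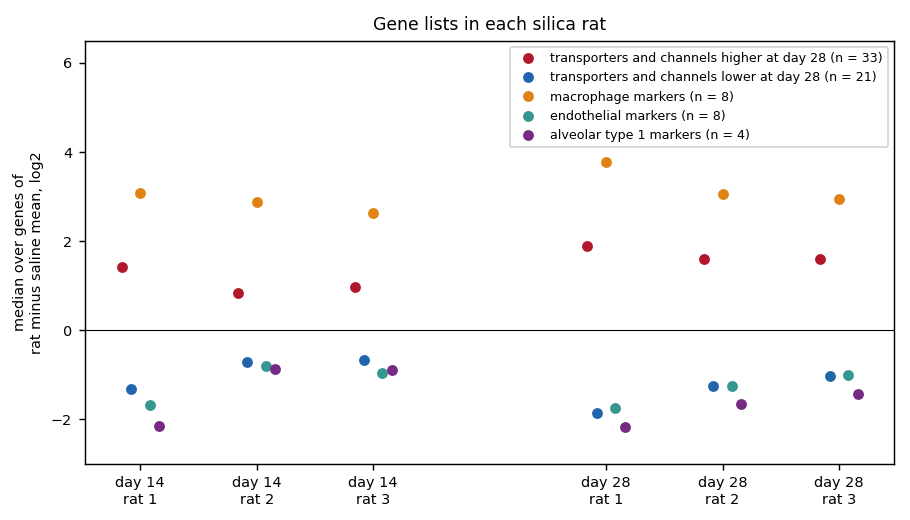
Median over the genes of a list of the rat's log2 signal minus the saline mean of its day (vertical axis), for each of the 6 silica rats (horizontal axis). Silica rat 1 lies farthest from 0 on both days for the 33 higher and 21 lower transporters and channels and for the macrophage, endothelial and alveolar type 1 marker lists.

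All 54 genes were matched to RefSeq by gene ID, 41 of them to a promoter entry, of which the 250 bases before the start were used (assembly GRCr8). Shown are the genes that rose most at day 14 among carriers, Slc26a4 and Slc37a2, and 2 that fell, Slco2a1 and Slc9a3r2 (now Nherf2). Capitals mark matches on either strand to the GC box, TATA box, E-box or AP-1 site, whose letters are given after the sequences. In these windows no match of one motif overlaps a match of another.
Slc26a4, chr6:53873217-53873466, minus strand: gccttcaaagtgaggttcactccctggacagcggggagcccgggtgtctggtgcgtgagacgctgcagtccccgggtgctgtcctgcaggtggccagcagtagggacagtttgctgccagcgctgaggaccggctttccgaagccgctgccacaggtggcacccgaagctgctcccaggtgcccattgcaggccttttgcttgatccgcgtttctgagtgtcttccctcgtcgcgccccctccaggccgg
Slc37a2, chr8:45160190-45160439, minus strand: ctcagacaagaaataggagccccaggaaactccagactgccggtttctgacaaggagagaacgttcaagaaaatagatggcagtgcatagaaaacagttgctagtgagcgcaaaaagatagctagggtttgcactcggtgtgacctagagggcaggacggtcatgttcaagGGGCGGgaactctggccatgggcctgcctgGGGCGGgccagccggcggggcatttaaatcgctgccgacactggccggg
Slco2a1, chr8:112467489-112467738, plus strand: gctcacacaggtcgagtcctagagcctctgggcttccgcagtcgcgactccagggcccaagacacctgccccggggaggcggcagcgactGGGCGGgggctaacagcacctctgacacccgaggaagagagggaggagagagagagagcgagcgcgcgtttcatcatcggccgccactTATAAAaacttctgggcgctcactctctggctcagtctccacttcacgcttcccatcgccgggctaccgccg
Slc9a3r2, chr10:14177520-14177769, minus strand: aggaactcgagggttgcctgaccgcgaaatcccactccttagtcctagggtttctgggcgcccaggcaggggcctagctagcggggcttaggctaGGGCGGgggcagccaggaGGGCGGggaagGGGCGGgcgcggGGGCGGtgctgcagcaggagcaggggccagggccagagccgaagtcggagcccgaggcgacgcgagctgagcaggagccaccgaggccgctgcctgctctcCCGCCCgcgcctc
The GC box, bound by Sp factors and searched as GGGCGG, stood in 12 of the 24 higher genes and 10 of the 17 lower genes with an entry, which is 53.7% of the 41, and in 30.5% of all 33469 promoters of that length. The windows of these genes were also richer in G and C, with medians of 59.8% (higher) and 65.2% (lower) against 51.2% over all promoters. Whether the GC box was more frequent at equal G and C content was not tested. Basic helix-loop-helix factors bind the E-box, here CACGTG, which stood in 5 of the 41 (Aqp5, Slc12a7, Slc16a1, Slc29a2 and Slc36a1) and in 5.59% of all. The TATA box was searched as TATAAA and stood in 3 of the 41 genes and in 12.9% of all promoters. The site of AP-1 was searched as TGANTCA and stood in 2 of the 41 genes and in 6.34% of all promoters. The Slc26a4 window held none of these letters, and the Slc9a3r2 window held the GC box 5 times.

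Ion exchangers and pumps held the largest difference. Slc26a4 encodes pendrin, which exchanges chloride for bicarbonate, iodide or thiocyanate in airway and thyroid epithelium. Its signal was 4.65, 3.75 and 3.86 in the saline rats and 9.32, 10.18 and 9.36 in the silica rats of day 14. Saline signals lay near background, 1 of the 3 rats not being well above it, and the groups were far apart. The gene had passed the filter through the silica rats alone. It rose 46.3-fold (difference 5.53 ± 0.32 SE, n = 3 against 3, limma adjusted p = 0.00157). With normexp correction the difference was 3.4 (adjusted p = 0.000465). At day 28 the signals were 4.02, 5.0 and 4.22 in saline and 9.92, 8.85 and 8.65 in silica rats, a difference of 4.72.

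The lower gene of this group was Slc9a3r2, whose product NHERF2 is a scaffold that holds ion exchangers at the membrane. Its signals fell from 11.09, 11.14 and 11.37 to 9.42, 10.3 and 10.33 at day 14, a difference of -1.18 ± 0.26 (2.27-fold lower, adjusted p = 0.035). Silica rat 1 was lowest, and without it the difference was -0.88 (adjusted p = 0.0246). Without saline rat 1, 2 or 3 the adjusted p was 0.096, 0.103 and 0.125. The values at day 28 were 11.55, 11.61 and 11.49 in saline and 9.69, 10.11 and 10.23 in silica rats. A further 3 genes of the group differed by less than a fold of 2 at day 14: the flippase gene Atp8b4 by 0.91 (adjusted p = 0.0152), the potassium and chloride cotransporter gene Slc12a7 by 0.7 (adjusted p = 0.046) and the sodium and calcium exchanger gene Slc8a1 by 0.79 (adjusted p = 0.13). At day 28 these differences were 1.95, 1.05 and 1.26.

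Of the 7 carriers of sugars, monocarboxylates and mitochondrial substrates, 5 rose at day 14 and none fell. Slc37a2 encodes a sugar phosphate carrier that is abundant in macrophages and osteoclasts. Its signal was 4.84, 4.45 and 4.72 in saline and 8.41, 7.62 and 7.87 in silica rats, 9.85-fold higher (3.3 ± 0.23, adjusted p = 0.00214). Every silica rat lay above the saline rats. With normexp correction the difference was 1.88, still called. At day 28 the signals were 3.64, 5.17 and 4.68 in saline and 8.79, 8.5 and 8.71 in silica rats, a difference of 4.17 over all arrays and 5.03 within the first slide.

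The glucose carrier gene Slc2a1 (GLUT1) rose from 8.48, 8.61 and 8.65 to 10.47, 9.63 and 9.78, a difference of 1.38 ± 0.23 (adjusted p = 0.0185). Silica rat 1 was highest, and the call was lost without saline rat 1 (1.33, adjusted p = 0.0668), saline rat 2 (1.4, adjusted p = 0.0721) and saline rat 3 (1.42, adjusted p = 0.073). Its paralog Slc2a6 (GLUT6), which sits on lysosomes, overlapped between groups at day 14 at 4.67, 3.59 and 5.01 against 5.88, 4.92 and 4.29 (0.61, adjusted p = 0.466). At day 28 Slc2a1 differed by 1.71 and Slc2a6 by 1.98, the latter 2.9 within the first slide.

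Both monocarboxylate carriers rose. Slc16a6 (MCT7) read 6.33, 6.02 and 6.34 in saline and 7.82, 8.86 and 8.16 in silica rats at day 14 (2.05 ± 0.26, 4.15-fold, adjusted p = 0.00964). The groups did not overlap, and here silica rat 2, not rat 1, was highest. Signals of day 28 were 5.62, 5.94 and 6.12 in saline and 7.35, 7.24 and 6.85 in silica rats, a smaller difference of 1.25; the difference between days was not tested, since day 28 chose the gene. Slc16a1 (MCT1), the main lactate carrier, rose by 1.15 ± 0.15 (adjusted p = 0.00993) and differed by 1.38 at day 28. Without saline rat 2 Slc16a6 had an adjusted p of 0.0567, and without saline rat 3 Slc16a1 one of 0.0506. With normexp correction Slc16a1 differed by 0.72, under a fold of 2.

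Slc25a10, the dicarboxylate carrier of the inner mitochondrial membrane, gave some of the tightest values. It read 6.23, 6.47 and 6.46 in saline and 7.88, 7.71 and 7.74 in silica rats at day 14 (1.39 ± 0.14, adjusted p = 0.005). The groups were clear of each other, and at day 28 the signals were 6.86, 6.76 and 6.48 in saline and 8.03, 7.96 and 7.84 in silica rats. Slc25a43, a mitochondrial carrier whose substrate is less well known, differed by 1.04 at day 14 (adjusted p = 0.0647) and by 1.8 at day 28.

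All 7 amino acid carriers were higher at day 28, and 3 were called higher at day 14. Slc7a7 (y+LAT1) exports cationic amino acids and is the gene mutated in lysinuric protein intolerance, a disease that affects alveolar macrophages. At day 14 it read 8.37, 7.81 and 8.25 in saline and 9.41, 10.16 and 9.92 in silica rats (1.68 ± 0.24, 3.22-fold, adjusted p = 0.0124). The groups did not overlap, and silica rat 1 was the lowest of the silica rats, unlike for most higher genes. At day 28 it read 7.98, 8.18 and 7.87 in saline and 9.93, 9.79 and 9.5 in silica rats, so the differences were 1.68 and 1.73. Without saline rat 2 or 3 the adjusted p at day 14 was 0.0582 and 0.0531.

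Its paralog Slc7a8 (LAT2), a carrier of neutral amino acids, was dim. No saline rat was well above background on either day. At day 14 the signals were 3.61, 2.12 and 3.35 in saline and 5.4, 4.17 and 4.77 in silica rats, at least 2.06-fold higher in silica rats, and the adjusted p of 0.0507 missed the threshold. At day 28 they were 2.36, 2.9 and 2.26 in saline and 5.01, 4.77 and 4.49 in silica rats, at least 1.96-fold. Such bounds set each dim rat at the lowest signal among probes well above background on its array, or at its own signal where that was higher.

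Slc36a1 and Slc36a3, proton-coupled amino acid carriers of which the first acts on lysosomes, lie near each other on chromosome 10 with 1 coding gene between them. Slc36a1 rose from 6.78, 6.59 and 6.83 to 7.96, 7.65 and 7.74 (1.05 ± 0.15, adjusted p = 0.0123). Its groups were clear of each other, and it lost the call without saline rat 2 (0.98, adjusted p = 0.0556), saline rat 3 (1.1, adjusted p = 0.0532) and silica rat 1 (0.96, adjusted p = 0.0189). Slc36a3 was much dimmer at 3.95, 3.65 and 3.5 in saline and 5.14, 4.2 and 4.83 in silica rats (1.02 ± 0.25, adjusted p = 0.0481), and it kept its call only without silica rat 2, with adjusted p-values of 0.0912 to 0.156 without the others. Slc36a3 had passed the filter through the silica rats alone. With normexp correction neither was called, at 0.75 for Slc36a1 and 0.24 for Slc36a3. On day 28 the differences were 1.39 for Slc36a1 and at least 2.67-fold for Slc36a3, whose saline rats were not well above background.

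None of the 3 glutamine carriers was called at day 14. Slc1a5 (ASCT2) was 0.62 higher at day 14, under a fold of 2 (adjusted p = 0.036). Slc38a6 differed by 1.18 (adjusted p = 0.0613) with silica rats at 9.15, 8.04 and 7.99, of which rat 1 stood well above the other two. Slc38a1 differed by 0.55 (adjusted p = 0.184) and overlapped between groups. By day 28 the 3 genes differed by 1.03, 1.68 and 1.44.

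Among carriers of osmolytes and amines, Slc6a4 fell. It encodes the serotonin transporter, which clears serotonin from the blood in lung endothelium. Saline rats of day 14 read 9.57, 9.25 and 9.67 and silica rats 7.02, 8.56 and 8.04 (-1.63 ± 0.37, 3.09-fold lower, adjusted p = 0.0378). Silica rat 1 was lowest, and without it the gene was still called at -1.20. It was lost without saline rat 1 (-1.59, adjusted p = 0.114), saline rat 2 (-1.75, adjusted p = 0.0986), saline rat 3 (-1.54, adjusted p = 0.128) and silica rat 3 (-1.71, adjusted p = 0.0714). The saline rats of day 28 were tight at 10.13, 10.21 and 10.16 and the silica rats spread widely at 6.75, 8.78 and 8.98, a difference of -2.0.

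Slc6a12, the betaine and GABA carrier that cells use against osmotic stress, gave 2 answers. Its brighter probe overlapped at day 14, at 7.62, 8.04 and 7.65 in saline and 8.95, 7.93 and 8.69 in silica rats (0.75, adjusted p = 0.129). Its dimmer probe, whose sequence is given above, read 5.84, 5.75 and 5.71 in saline and 9.1, 7.53 and 8.04 in silica rats, 5.48-fold higher (2.45 ± 0.36, adjusted p = 0.0142), with no overlap. On day 28 the probes differed by 1.65 and 3.63. Slc5a3, the myo-inositol carrier, overlapped at day 14 at 4.09, 3.73 and 4.61 in saline and 5.08, 4.36 and 4.12 in silica rats (adjusted p = 0.487), and at day 28 read 2.3, 3.57 and 4.1 in saline and 6.05, 4.51 and 5.4 in silica rats, a difference of 2.0 over all arrays and 3.02 within the first slide, where the saline rat was the dimmest of the 3.

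Carriers of nucleosides, organic ions and drugs moved in both directions. Slc47a1 (MATE1), which exports organic cations in exchange for protons, rose from 4.57, 4.3 and 4.85 to 6.37, 6.65 and 6.93 at day 14 (2.07 ± 0.21, 4.21-fold, adjusted p = 0.005). The groups were well apart, and with normexp correction the difference was 0.95, just under a fold of 2. At day 28 they were apart again, at 3.92, 4.99 and 4.71 in saline and 6.65, 6.84 and 6.65 in silica rats. Slco2a1, the prostaglandin transporter of endothelium, was one of the brightest probes here and fell from 12.01, 12.25 and 12.27 to 10.31, 11.35 and 11.02 (-1.29 ± 0.26, 2.44-fold lower, adjusted p = 0.0296). All 3 probes of the gene were called lower. Its call held only without silica rat 2, and without silica rat 1 the difference was -0.99 (adjusted p = 0.0246). Without the other rats the adjusted p was 0.0597 to 0.109. By day 28 the signals were 12.32, 12.22 and 12.53 in saline and 10.33, 10.56 and 11.15 in silica rats.

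The organic anion carriers Slco1a1 and Slco1a5, which lie on chromosome 4 with 2 coding genes between them, did not pass the test. Slco1a5 read 6.23, 6.4 and 6.4 in saline and 2.8, 6.2 and 5.78 in silica rats of day 14, so its difference of -1.42 (adjusted p = 0.302) came mostly from silica rat 1 and was -0.35 without it. Slco1a1 differed by -0.78 (adjusted p = 0.269) and by -0.27 without that rat. At day 28 their differences were -1.03 for Slco1a1 and -1.5 for Slco1a5, with no overlap. Slc22a4 (OCTN1, an ergothioneine carrier), the nucleoside carriers Slc29a2 and Slc28a2, and Slco5a1, whose substrate is poorly known, were higher by 0.86, 0.44, 0.74 and 0.25 at day 14, with adjusted p-values of 0.079, 0.118, 0.156 and 0.706. At day 28 the first 3 differed by 1.39, 1.07 and 1.73, and Slco5a1 was at least 2.09-fold higher, no saline rat being well above background. Predicted genes LOC102554663 and LOC102556085 are annotated as like Slc28a2, so the signal of Slc28a2 may include theirs and is uncertain.

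The 4 ABC transporters split evenly at day 28. Abcb4, which moves phosphatidylcholine to the outer leaflet of the membrane, rose at day 14 from 4.14, 3.45 and 3.56 to 6.5, 5.64 and 5.47 (2.15 ± 0.31, 4.44-fold, adjusted p = 0.013). The groups did not overlap, and 1 of the 3 saline rats was well above background, so the gene had passed the filter through the silica rats alone. With normexp correction the difference was 0.66 (adjusted p = 0.0214), under a fold of 2. The call was also lost without saline rat 2 (2.02, adjusted p = 0.0651) and saline rat 3 (2.07, adjusted p = 0.0611). At day 28 it read 2.98, 2.51 and 3.41 in saline and 6.66, 6.37 and 6.3 in silica rats, and was at least 6.3-fold higher, no saline rat being well above background.

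Abcb1b lies next to Abcb4 on chromosome 4 with no coding gene between them and encodes the drug efflux pump P-glycoprotein. At day 14 it overlapped widely, at 7.8, 9.0 and 9.93 in saline and 7.98, 8.59 and 9.23 in silica rats (-0.32 ± 0.54, adjusted p = 0.756). The 3 saline rats of day 14 spanned more than 2 on the log2 scale, and without saline rat 3 the difference was 0.19. The saline rats of day 28 were tight at 10.01, 10.29 and 10.18 and the silica rats read 7.42, 8.74 and 7.37, a difference of -2.32. The gene's other probe behaved alike, with -0.03 at day 14 and -2.13 at day 28. Abca5, a lysosomal transporter, read 8.65, 8.52 and 8.69 in saline and 7.42, 8.32 and 8.31 in silica rats at day 14 (adjusted p = 0.172) and 8.53, 8.63 and 8.66 in saline and 7.58, 7.55 and 7.65 in silica rats at day 28. Abcc5, an exporter of cyclic nucleotides, differed by 0.53 (adjusted p = 0.238) and by 1.08.

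Potassium channel subunits were mostly lower: 9 of 12 at day 28. The 3 higher ones were all called at day 14, but 2 of them, Kcnk13 and Kcnip4, had passed the filter through the silica rats alone. Kcnn4 encodes KCa3.1, a calcium-activated channel of macrophages, lymphocytes and fibroblasts. It rose from 6.07, 6.3 and 5.96 to 8.99, 7.8 and 8.22 at day 14 (2.23 ± 0.29, 4.69-fold, adjusted p = 0.00997). The groups were well apart, and both of its probes were called. With normexp correction the difference was 1.57, still called. Without saline rat 2 or 3 the adjusted p was 0.0517 and 0.0502. On day 28 the signals were 6.07, 6.02 and 6.03 in saline and 9.2, 9.03 and 8.96 in silica rats, a difference of 3.02.

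Kcnk13 (THIK-1), a tandem-pore channel known from microglia, was dim in saline lungs. It read 3.0, 2.53 and 3.68 in saline and 5.58, 4.38 and 4.31 in silica rats at day 14 and was at least 2.03-fold higher in silica rats (adjusted p = 0.0446). No saline rat was well above background on either day. The call held only without silica rat 2, the adjusted p being 0.0615 to 0.138 without the others. At day 28 it was at least 3.02-fold higher, at 1.65, 3.57 and 3.28 in saline and 5.48, 5.21 and 5.46 in silica rats. Kcnip4, a subunit that binds Kv4 channels, was also dim, at 3.32, 3.5 and 3.18 in saline and 4.28, 4.63 and 4.31 in silica rats, and was at least 1.59-fold higher at day 14 (adjusted p = 0.0144). It lost its call without saline rat 1 (1.06, adjusted p = 0.0572), saline rat 3 (1.0, adjusted p = 0.0692) and silica rat 2 (0.96, adjusted p = 0.0233), and its other probe was not well above background in saline rats either. With normexp correction neither gene was called, at 0.35 for Kcnk13 and 0.2 for Kcnip4. At day 28 Kcnip4 differed by 1.43, with 1 of 3 saline rats well above background.

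Kcnk3 (TASK-1), the acid-sensitive channel of pulmonary artery smooth muscle that is mutated in some forms of pulmonary hypertension, was the only potassium channel called lower at day 14. It fell from 9.02, 9.14 and 9.18 to 7.37, 8.24 and 8.42 (-1.1 ± 0.27, adjusted p = 0.0454). Silica rat 1 was lowest, and the call held only without silica rat 3. It was lost without saline rat 1 (-1.15, adjusted p = 0.118), saline rat 2 (-1.09, adjusted p = 0.132), saline rat 3 (-1.07, adjusted p = 0.142), silica rat 1 (-0.78, adjusted p = 0.029) and silica rat 2 (-1.22, adjusted p = 0.0512). With normexp correction it was -0.95, under a fold of 2. The other probe differed by -1.21 (adjusted p = 0.111). By day 28 the signals were 8.94, 9.37 and 9.03 in saline and 7.27, 8.19 and 8.01 in silica rats, a difference of -1.29.

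Kcnd3 (Kv4.3) and Kcnq5 (Kv7.5), voltage-gated channels of muscle and nerve, passed the adjusted p at day 14 with differences under a fold of 2. They were -0.87 (adjusted p = 0.0481) and -0.87 (adjusted p = 0.0403). No silica rat was well above background for Kcnd3, which passed the filter through the saline rats alone and was at least 1.68-fold lower. The inward rectifier gene Kcnj4 differed by -1.6 with an adjusted p of 0.0541, at 6.01, 5.69 and 5.49 in saline and 3.27, 4.06 and 5.07 in silica rats. At day 28 Kcnq5 and Kcnj4 differed by -1.33 and -1.42, and Kcnd3 was at least 1.55-fold lower.

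A further 4 potassium channel genes, low at day 28, did not pass the test at day 14 or were not tested then. Kcnk2 (TREK-1), a stretch-sensitive channel, read 7.96, 7.9 and 8.06 in saline and 7.86, 8.38 and 8.35 in silica rats at day 14 (0.22, adjusted p = 0.465) and 7.65, 8.29 and 8.21 in saline and 6.96, 6.23 and 6.94 in silica rats at day 28 (-1.34, or -0.94 within the first slide). It was the only gene of the 54 whose mean difference had opposite signs on the 2 days. Kcnb2 (Kv2.2) differed by -0.13 at day 14 (adjusted p = 0.721), and by at least 1.45-fold at day 28, when no silica rat was well above background. Kcnma1, the large-conductance calcium-activated channel, and the auxiliary subunit gene Kcne5 were too dim to test at day 14. The groups of Kcne5 overlapped then, with 2 of 3 saline rats and no silica rat well above background. The bound on its mean fold, 1.37-fold lower in silica rats, is therefore uncertain. At day 28 Kcne5 read 5.09, 4.2 and 4.8 in saline and 1.59, 1.59 and 3.75 in silica rats. No silica rat was well above background for either gene, which were at least 1.25-fold (Kcne5) and 1.44-fold (Kcnma1) lower.

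Of the other channels, Trpv2 was called at day 14. It encodes a calcium-permeable channel of macrophages. It rose from 7.72, 7.53 and 7.53 to 9.79, 9.08 and 9.06 (1.72 ± 0.22, 3.28-fold, adjusted p = 0.00908), and both its probes were called. The groups did not overlap, and without saline rat 2 the adjusted p was 0.0542. Signals of day 28 were 7.38, 7.9 and 7.31 in saline and 9.45, 9.31 and 9.2 in silica rats. Trpm5, a cation channel of chemosensory cells, lay with Abca5 closest to the limit that chose the genes. It read 8.76, 9.41 and 9.16 in saline and 8.37, 8.07 and 8.34 in silica rats at day 14 (-0.85, adjusted p = 0.0408) and 7.97, 8.25 and 8.56 in saline and 7.1, 7.01 and 7.63 in silica rats at day 28. Cacnb2, a calcium channel subunit, differed by -0.84 (adjusted p = 0.0476) and by -1.03 at day 28.

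The Clic family of chloride intracellular channel proteins was divided. Clic1, which is abundant in macrophages, was higher in every silica rat of day 14 (12.25, 12.32 and 12.46 against 11.52, 11.42 and 11.61). The difference of 0.83 ± 0.13 was under a fold of 2 (adjusted p = 0.0181). Clic3 and Clic5 went the other way without being called on their brightest probe, at -1.04 (adjusted p = 0.06) and -1.21 (adjusted p = 0.0664). The dimmer probe of Clic5 was called lower at -1.43 (adjusted p = 0.0257). Silica rat 1 was the lowest for both genes, at 8.8 for Clic3 and 9.78 for Clic5. On day 28 the 3 genes differed by 1.06, -1.35 and -1.32, and Clic1 by 0.78 within the first slide. Aqp5, the water channel of alveolar type 1 cells, read 12.39, 12.05 and 12.65 in saline and 10.58, 11.79 and 11.92 in silica rats at day 14 (-0.93, adjusted p = 0.145), and differed by -1.29 at day 28.

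**Figure D3:**
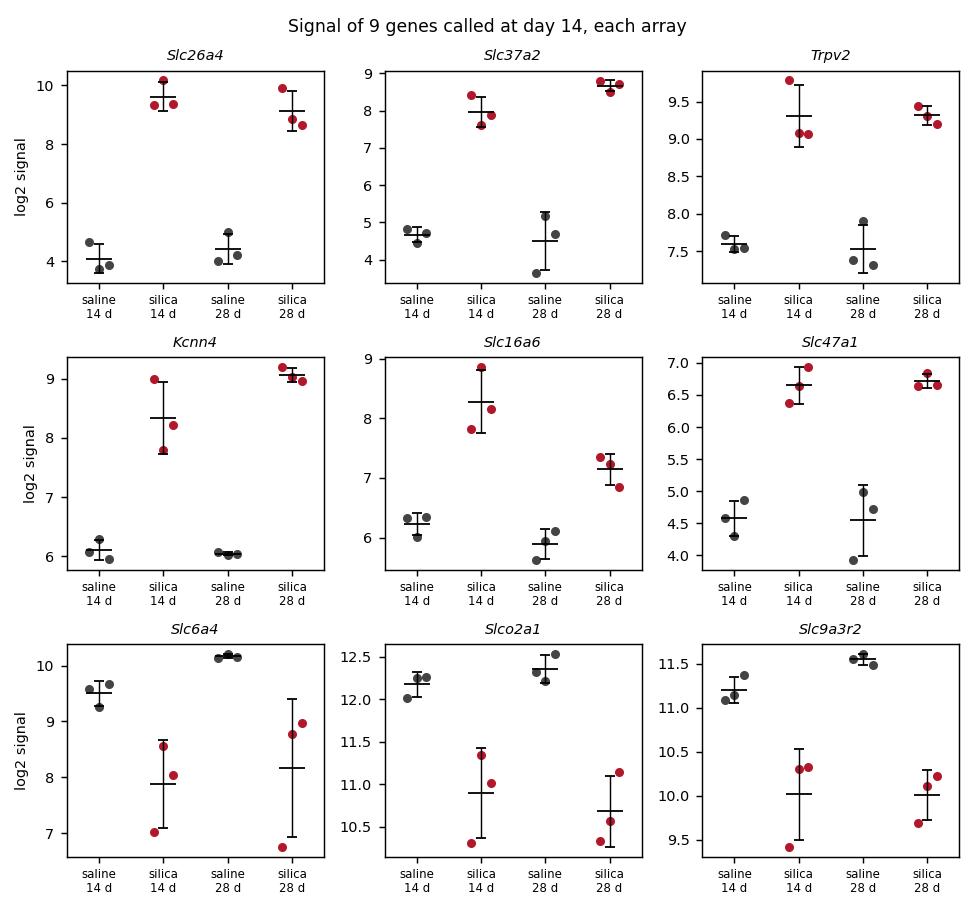
Log2 signal (vertical axis) of 9 genes called at day 14, with a point for each rat, black for saline and red for silica, and the mean and SD of each group of 3. The groups of day 14 do not overlap in any panel, and Slc6a4 in silica rats of day 28 has the widest spread.

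**Figure D4:**
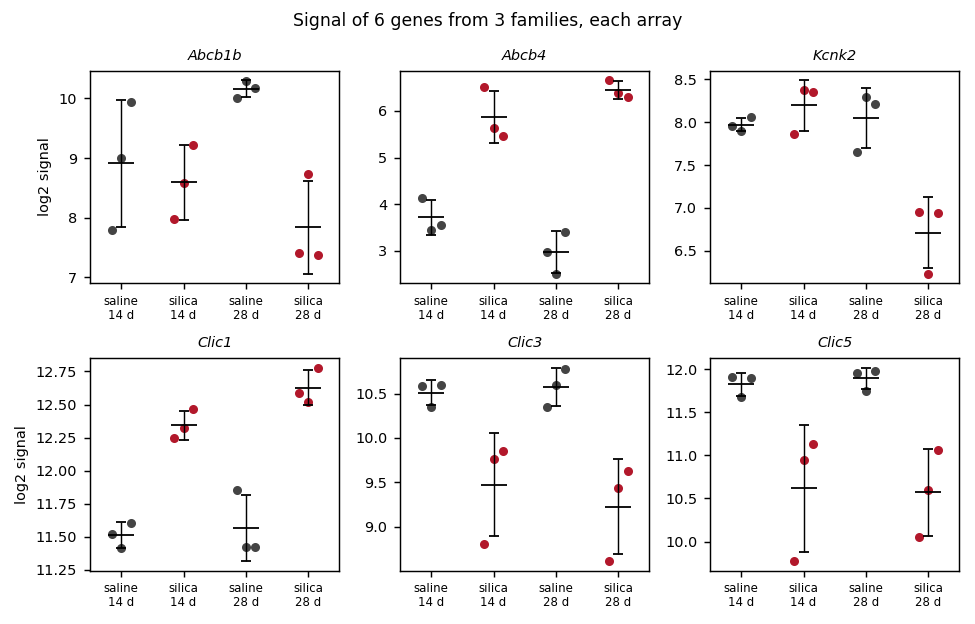
Log2 signal (vertical axis) of Abcb1b and Abcb4, Kcnk2, and Clic1, Clic3 and Clic5, with a point for each rat and the mean and SD of each group of 3. Abcb4 is higher with silica on both days whereas Abcb1b and Kcnk2 overlap at day 14 and are lower at day 28, and Clic1 lies above saline where Clic3 and Clic5 lie below it.

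Probes of the same gene mostly told the same. Of the 15 genes with more than 1 probe, 13 had all their probes within 0.5 of each other at day 14, and none had probes of opposite sign. The exceptions were Slc6a12 and Slc28a2, whose 4 probes ran from 0.74 to 1.63, with 1 called higher. In 6 genes the call differed between probes. Besides these they were Clic5, Kcnk3, Kcnip4 and Slc36a3, and in the last 2 the other probe was too dim to test.

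**Figure D5:**
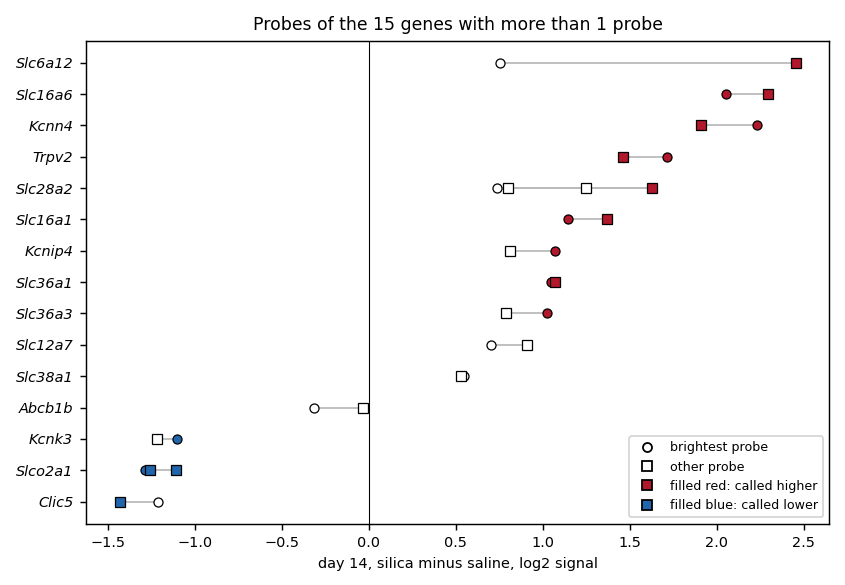
Silica minus saline difference in log2 signal at day 14 (horizontal axis) of each probe of the 15 genes that have more than 1, circles for the brightest probe and squares for the others, filled where called. The probes of Slc6a12 lie farthest apart, at 0.75 and 2.45.

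Of 17 other transport genes on the study's list, with Slc7a11 and Kcna5 among them, 7 were called higher and 2 lower at day 14, against 2.65% and 2.34% of all probes. Of the 17, 3 passed the filter through the silica rats alone and 1 through the saline rats alone. The list holds 5 subunits of the V-ATPase, the proton pump that acidifies lysosomes, of which 3 were called. Atp6v0d2 was at least 17.2-fold higher (adjusted p = 0.00677) and passed the filter through the silica rats alone, since no saline rat was well above background. Atp6v1a rose by 1.26 (adjusted p = 0.0112) and Tcirg1 by 1.17 (adjusted p = 0.0344). With each rat left out in turn, Atp6v1a kept its call in all 6 refits and Tcirg1 in 1. The other subunits, Atp6v0c and Atp6v1c1, differed by 0.91 (adjusted p = 0.0155) and 0.71 (adjusted p = 0.0489), under a fold of 2. The cystine carrier gene Slc7a11 rose by 3.99 (adjusted p = 0.00952). The ATP-gated channel gene P2rx1 fell by 1.49 (adjusted p = 0.00732) and the stretch-activated channel gene Piezo2 fell by 1.08 (adjusted p = 0.0257). P2rx1 kept its call in all 6 refits and Piezo2 in 1. Signs differed between the days for Kcna5, at 0.7 on day 14 (adjusted p = 0.0511) and at least 1.24-fold lower on day 28, and for Gjb2, at -0.34 and 1.18.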

How the data were processed

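Lung RNA of 12 samples was hybridised to single-colour Agilent arrays. The authors deposited spot intensity for each array from Agilent Feature Extraction 10.7.1.1, background-subtracted and detrended but not normalized between arrays, and a table of log2 values that they had quantile normalized. The processed intensity was averaged here over the spots of a probe, without control spots and without outlier spots where a probe had others. The averages were log2 transformed and quantile normalized over all 12 arrays in limma 3.58.1 (R 4.3.3). The number of arrays, 3 a group, limits the precision.

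Day 14 was fitted by limma (lmFit, eBayes) on its 6 arrays, using probes that stood well above background on all 3 arrays of one group or the other. P-values were adjusted by Benjamini-Hochberg over 33615 probes, and a call needed an adjusted p no higher than 0.05 with a fold of 2 or more. Day 28, on which the genes had been selected by the study, was not tested. A gene stands by its brightest probe. Where no array of the dim group was well above background, folds are bounds. Probe names came from the part of the study's list that was read (1279 of 2275 probes), used for names and sequences only, and its fold changes and p-values were not used.

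Genes and lists were chosen with earlier results of these data known. Single-array values are given for up to 4 called genes of each role group, the gene of largest difference at day 28 in each, the 2 genes of smallest difference there and paralogs. Those of Slc6a12, Slc38a6, Kcnj4 and Aqp5 were added after their values were seen. 2 of the 54 genes are counted but not reported here by name. The scripts were tested on simulated data. Alternatives covered normalization, background correction, filters, thresholds, the probe of a gene, slide, replicate block and leaving out each rat. Sequence tables were RefSeq's (GRCr8).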

Additional observations from a re-analysis of the deposited data

How the results depend on the processing

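At day 14 the calls moved with the rats included, the background correction and the filter. With normexp background correction (offset 50), 423 probes were higher and 278 lower in place of 890 and 788, and 8 transporter and channel genes were higher in place of 16, with 4 still lower. Abcb4, Kcnip4, Kcnk13, Kcnk3, Slc16a1, Slc25a10, Slc36a1, Slc36a3 and Slc47a1 lost their call there and Clic5 gained one. Without the fold limit, normexp gave more probes at the adjusted p, 1833 higher and 2172 lower against 1561 and 1614. At day 28 normexp left 16 genes at least 2-fold higher and 8 at least 2-fold lower in place of 33 and 21. Without a filter on dim probes, all 51255 probes being tested, 337 probes were higher and 117 lower, and of the genes 9 were higher and 0 lower, where 7 were lower at an unadjusted p of at most 0.05 and 2-fold in limma among the filtered probes. At the adjusted p alone, 1561 probes were higher and 1614 lower, and 9 genes lower. At an unadjusted p and 2-fold, 1245 probes and 7 genes were lower. Leaving out each rat of day 14 gave 280 to 940 probes higher, 62 to 1431 lower, 6 to 18 genes higher and 0 to 4 lower. Leaving out each rat of day 28 gave 31 to 33 genes at least 2-fold higher and 16 to 21 lower. Over these refits the differences of 3 genes, none of them called, changed sign: Slco5a1 ran from -0.065 (without silica rat 1) to 0.65, Kcnb2 from -0.27 to 0.030 (without silica rat 1) and Abcb1b from -0.87 to 0.19 (without saline rat 3). With the 75th percentile in place of quantiles Slc36a3 lost its call and Clic1 and Slc7a8 gained one, and with a spread shared over 12 arrays Slc36a3 and Slc6a4 lost theirs and 6 genes gained one. The authors' table and quantiles over the 6 arrays of the day changed no call of these genes. The cause of these changes was not tested beyond the number of probes and arrays in each fit.

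Rats with the same number showed no clear common deviation at day 14 (correlations of 0.025, -0.17 and 0.063 over probes). Rats with unlike numbers gave correlations from -0.21 to 0.18. The labels name no pairing, and so few values cannot exclude one. With the replicate block 884 probes were higher and 736 lower, 17 genes were higher and 4 lower, and Slc7a8 gained a call. With 3 pairs, not every rat correlated best with its own number.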
